A study of Drosophila melanogaster with 20 samples.

Results

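The proteasome is the protease complex that breaks down proteins tagged with ubiquitin. Its core particle is a barrel in which rings of beta subunits, some of them catalytic, lie between outer rings of alpha subunits that gate the entry. A regulatory particle caps the barrel: its base holds the Rpt ATPases, which unfold the substrate, and its lid and base hold the Rpn subunits, which bind ubiquitin, remove it or act as scaffold. In Drosophila, several subunits have duplicates that are mainly used in the testis, where they form a variant of the complex in the male germline. In many animals the genes of the core and regulatory particles are transcribed together under cap-n-collar type transcription factors.

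The genes described here are all probe sets of the array that carry a single gene symbol starting with Prosalpha, Prosbeta, Rpn or Rpt and a digit. There were 40 such probe sets, 1 for each of 40 genes, among 13441 probe sets with a single symbol and 16322 in all. The rule used symbols and no measured value. Of the 40 genes, 26 encode subunits of the standard complex: 6 alpha and 6 beta subunits of the core particle, 4 Rpt and 10 Rpn subunits of the regulatory particle. The other 14 are testis-type duplicates, whose symbols end in T, R or such a letter with a digit. Another 2 probe sets carry the symbols of both Prosalpha1 and its duplicate Prosalpha1R and were left out. Prosalpha1, Prosbeta1, Rpn9, Rpn10, Rpt1, Rpt6 and Rpt6R were not analysed here.

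Each sample was the total RNA of about 20 pairs of wing imaginal discs, the larval epithelia that form the adult wing, hybridised to 1 Affymetrix array. EGFR, named after the growth factor receptor, was in the genotype of every group. E_Ctrl and E_EHT carried EGFR alone, and EP_Ctrl, EP_EHT and EP_LNT carried EGFR with psqRNAi, an RNA interference construct against the BTB-domain gene pipsqueak. E_Ctrl and EP_Ctrl were taken at 12 hr, before tumors formed, E_EHT and EP_EHT were early-hyperplastic tumors at day 4, and EP_LNT were late-neoplastic tumors at day 11. What drives EGFR and the RNAi construct, in which cells, and the stage of the larvae are not given in the sources used here. Each group had 4 arrays labelled as biological replicates. E_EHT replicate 1 was discarded by the submitters for technical problems and was set aside, which left 19 arrays and n = 3 in E_EHT.

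The values were the authors' RMA log2 levels, between 2.67 and 14.19, and all levels below are on that scale. Array medians over 13402 genes lay between 7.29 and 7.39. Of the wing disc markers, 7 of 8 were measured, and their means over the 19 arrays lay between 8.88 and 11.01. The psq level was 0.09 ± 0.088 log2 lower in EP_Ctrl than in E_Ctrl (SE, adjusted p = 0.675), and it was 0.45 ± 0.095 lower in EP_EHT than in E_EHT (adjusted p = 0.0163). Its group mean went from 10.87 in E_Ctrl to 11.15 in E_EHT, and from 10.78 in EP_Ctrl to 10.70 in EP_EHT. The day 4 difference thus lay mostly in a higher level in E_EHT. Fewer cells of a type and less RNA per cell cannot be told apart in such samples. Means of the salivary gland markers ranged over several log2 units within most groups, from 7.96 to 11.95 in E_Ctrl for example.

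The standard subunits were all well measured, and the duplicates mostly were not. Means over the 19 arrays lay between 8.82 and 12.51 for the 26 standard subunits, with a median of 10.92, and none was below the 25th percentile of all genes, a level of 5.9. Among the 14 duplicates, 11 were below that level, and their means lay between 4.17 and 6.47, with a median of 5.44. Of the 15 testis and male germline markers measured, 7 were below it as well, and the mean of that list lay between 5.71 and 6.01 on every array. Levels of different probe sets are given only to show how far above background they were, since probes differ in brightness. The heat map of the 40 genes shows the contrast between the classes.

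**Figure D1:**
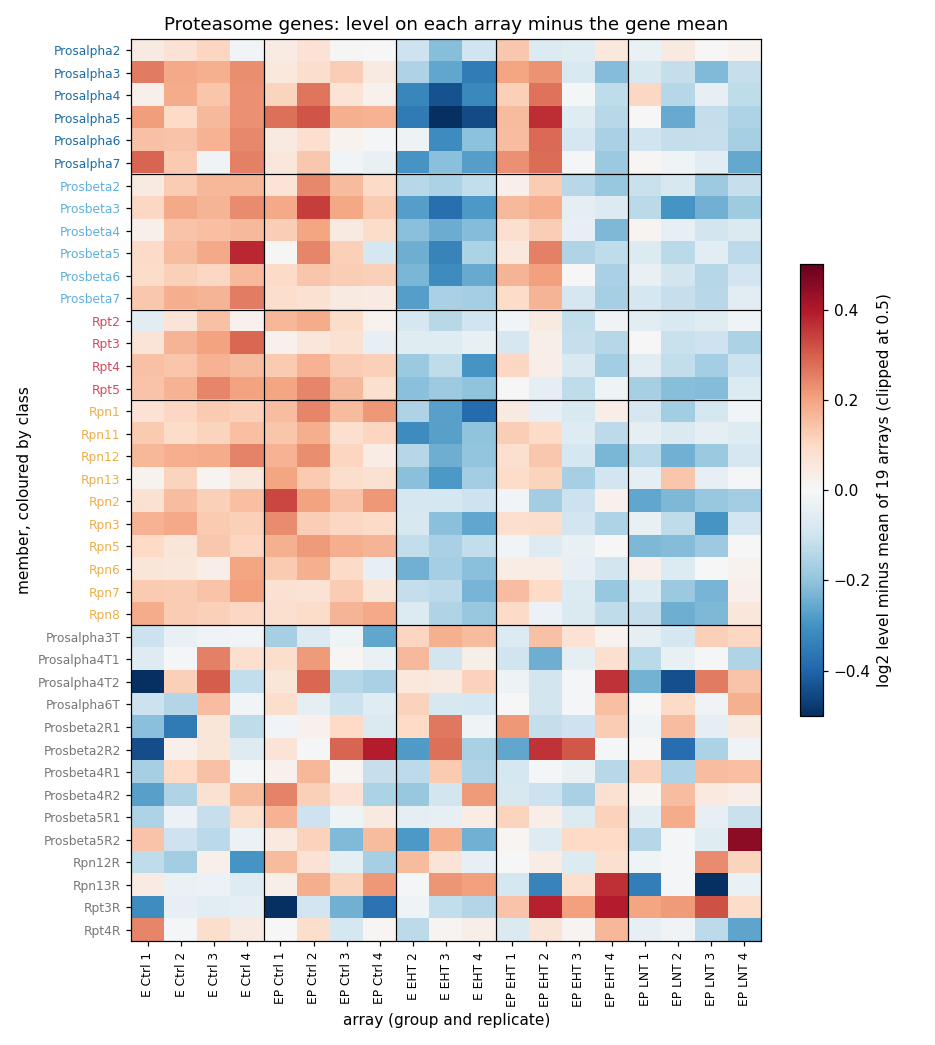
Log2 level of each of the 40 proteasome genes minus its mean over the 19 arrays, with arrays in columns by group, genes in rows by class and colours limited at 0.5. In all 26 standard subunits the means of E_EHT and EP_LNT are below those of both 12 hr groups, though single arrays overlap in rows such as Prosalpha2, and in Prosalpha4, Prosalpha5 and Prosbeta3 EP_EHT replicates 1 and 2 are above replicates 3 and 4.

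Across the 5 groups the standard subunits kept a common order. Of the 26 subunits, 23 had their lowest group mean in E_EHT, and 26 had their highest in a 12 hr group. All 26 were lower in EP_LNT than in both 12 hr groups, and 21 followed the order E_EHT, EP_LNT, EP_EHT from low to high. The exceptions to the lowest place were Rpn2, Rpn5 and Rpt3, which were lowest in EP_LNT. These group orders are descriptions, and the tests follow by comparison. How often other genes follow the same orders was not counted.

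The mean over the 26 subunits on each array showed the same order. It was 10.81, 10.83, 10.84 and 10.88 on the arrays of E_Ctrl and 10.83, 10.87, 10.81 and 10.77 on those of EP_Ctrl. It was 10.52, 10.46 and 10.48 in E_EHT, 10.79, 10.80, 10.62 and 10.58 in EP_EHT, and 10.63, 10.57, 10.57 and 10.62 in EP_LNT. E_EHT lay below every other array, and the 12 hr groups overlapped with each other. EP_EHT replicates 1 and 2 reached the 12 hr range, while replicates 3 and 4 lay in the range of EP_LNT, and the SD of EP_EHT was 0.113 against 0.029 to 0.042 in the other groups. The mean over all genes differed by less, from 7.53 to 7.56. E_EHT replicate 1, which was set aside, had a mean of 10.61.

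**Figure D2:**
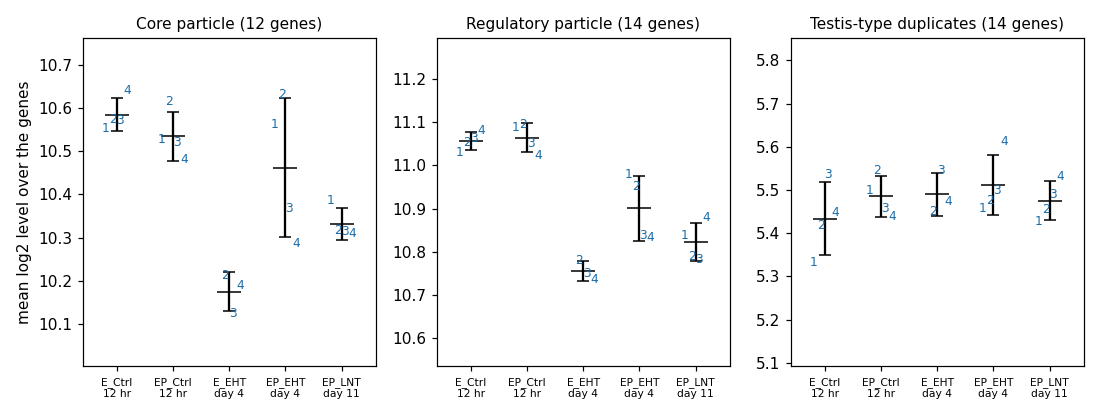
Mean log2 level per array over the 12 core subunits, the 14 regulatory subunits and the 14 testis-type duplicates, by group, with replicate numbers as symbols and bars for the group mean ± SD. In E_EHT the core mean was 10.18 ± 0.045 against 10.59 ± 0.039 in E_Ctrl, while the duplicates were at 5.49 ± 0.049 and 5.43 ± 0.085.

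The first comparison asked what psqRNAi changed before tumors formed. None of the 26 standard subunits passed the test between EP_Ctrl and E_Ctrl, and neither did any duplicate, against 2.43% of all 13402 genes called by limma in this comparison. The median log2 fold change of the 26 was -0.01, with a range from -0.15 to 0.10, and that of all genes was 0.00. Rpt3, a base ATPase, was 0.15 ± 0.055 lower in EP_Ctrl and was the only standard subunit with an unadjusted p below 0.05 (adjusted p = 0.182), where 15.6% of all genes had one. The Rpt3 levels were 10.97, 11.07, 11.10 and 11.19 in E_Ctrl and 10.92, 10.96, 10.97 and 10.86 in EP_Ctrl, so the groups met at their edges. Arrays of both groups did not overlap in 6 of the 26 subunits, 2 of them higher in EP_Ctrl and 4 lower, and percentages over all genes were 3.88% and 7.8%.

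From E_Ctrl to E_EHT, the RNA levels of nearly all standard subunits fell. Protein was not measured in this or any other comparison. Tumor growth and elapsed time changed together between these groups, the stage of the larvae is not given, and every group carried EGFR. Which of these the fall went with was not tested, and the same holds for the other comparisons over time. Where a comparison is named growth below, the word means only day 4 against the earlier arrays. Of the 26 standard subunits, 25 fell from E_Ctrl to E_EHT, where 4.61% of all genes fell and 1.97% rose. The median log2 fold change was -0.36, against 0.02 over all genes. Among 3985 other genes in the same range of mean levels, the median was -0.05 and 9.99% fell. The arrays of E_EHT lay below all arrays of E_Ctrl in 26 of 26 subunits, which was so for 14.8% of all genes.

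The single largest fall was in the alpha ring. All 6 measured alpha subunits fell, with a median of -0.45. Prosalpha5, a structural alpha subunit, was at 9.05, 8.94, 9.0 and 9.07 in E_Ctrl and at 8.49, 8.19 and 8.39 in E_EHT. The arrays of E_EHT all lay below those of E_Ctrl. Prosalpha5 fell by 0.66 ± 0.102 (SE, 1.58-fold, adjusted p = 0.00207). Prosalpha4 fell by 0.51 ± 0.09 (1.42-fold, adjusted p = 0.00453), from 10.24, 10.40, 10.35 and 10.45 to 9.89, 9.78 and 9.90. Prosalpha2 was the smallest of the ring with a fall of 0.19 ± 0.056 (adjusted p = 0.0472), and Prosalpha2 lost the call in 11 of 16 other settings. Its levels were 12.55, 12.58, 12.62 and 12.49 in E_Ctrl and 12.40, 12.29 and 12.41 in E_EHT, which did not overlap.

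The beta ring moved in the same way, with all 6 measured subunits lower and a median of -0.39. Prosbeta5 carries the chymotrypsin-like site and Prosbeta2 the trypsin-like site. Prosbeta5 was at 11.51, 11.57, 11.60 and 11.79 in E_Ctrl and at 11.17, 11.08 and 11.26 in E_EHT, and fell by 0.45 ± 0.097 (1.37-fold, adjusted p = 0.0133). Prosbeta2 was at 11.79, 11.87, 11.91 and 11.91 and then at 11.61, 11.59 and 11.62, and fell by 0.27 ± 0.069 (1.2-fold, adjusted p = 0.0309). The call of Prosbeta2 was lost in 6 of 16 other settings. For both catalytic subunits every E_EHT array was below every E_Ctrl array. Prosbeta3, a structural subunit of the ring, was at 10.82, 10.90, 10.88 and 10.95 and then at 10.44, 10.33 and 10.43. It fell by 0.49 ± 0.071 (1.4-fold, adjusted p = 0.00137), the largest fall of the beta ring, and its groups did not overlap.

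In the regulatory particle, 13 of 14 subunits fell, with a median of -0.30. Rpt5, a base ATPase, was at 11.79, 11.82, 11.89 and 11.85 in E_Ctrl and at 11.43, 11.46 and 11.44 in E_EHT. It fell by 0.39 ± 0.054 (1.31-fold, adjusted p = 0.00104), and its E_EHT arrays lay close together and below all of E_Ctrl. Rpt4 fell by 0.36 (adjusted p = 0.00341) and Rpt3 by 0.23 (adjusted p = 0.0296). The call of Rpt3 was lost in 8 of 16 other settings. Rpt2 did not pass the test, at 0.15 ± 0.058 lower (adjusted p = 0.121). Its levels were 10.89, 11.01, 11.09 and 10.96 in E_Ctrl and 10.86, 10.80 and 10.84 in E_EHT, which lay close together without overlapping.

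All 10 measured Rpn subunits fell. Rpn11, the deubiquitinase of the lid that removes ubiquitin chains from substrates, was at 10.51, 10.47, 10.49 and 10.53 and then at 10.06, 10.11 and 10.18. It fell by 0.38 ± 0.059 (1.3-fold, adjusted p = 0.002), with all E_EHT arrays below E_Ctrl. Rpn1, the base scaffold at which ubiquitin shuttle proteins dock, fell by 0.38 ± 0.058 (adjusted p = 0.00198), and the lid subunit Rpn12 by 0.39 ± 0.076 (adjusted p = 0.00794). Rpn13, a ubiquitin receptor of the base, fell by 0.27 ± 0.07 (adjusted p = 0.029). The smallest fall among the Rpn subunits was that of the base scaffold Rpn2, by 0.22 ± 0.056 (adjusted p = 0.03). In other settings the call of Rpn2 was lost in 7 of 16 and that of Rpn13 in 5 of 16.

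None of the 14 duplicates passed the test in this comparison, and their median was 0.03. The count of called genes depended on single arrays. It was 13 without E_EHT replicate 3, 15 without E_EHT replicate 4 and 16 without E_Ctrl replicate 4, against 25. Over all genes 2.04%, 2.47% and 2.8% were called in these settings, against 6.58%. The median log2 fold change of the 26 subunits stayed between -0.37 and -0.33 when any array was left out. With E_EHT replicate 1 kept, 24 genes were called, where 7.14% of all genes were. The mean of the fat body markers, 3 of 7 measured, was also lower in E_EHT, from 12.26 to 12.55 per array against 12.71 to 12.91 in E_Ctrl. Most of this was Fbp1, at 10.75 against 11.65, while Fbp2 was at 12.72 against 12.91 and Lsp2 at 13.70 against 13.74. The part of these markers in the result was not tested. Salivary gland markers overlapped, from 7.12 to 11.58 in E_EHT.

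In the discs with EGFR and psqRNAi fewer genes of the complex passed the test over the same interval. Of the 26 standard subunits, 4 fell from EP_Ctrl to EP_EHT and none rose, where 1.78% of all genes fell and 2.95% rose. The median log2 fold change was -0.14, with 24 of 26 values below 0, against 0.01 over all genes. The 4 were all in the regulatory particle: Rpn2, Rpn5, Rpt5 and Rpn1. None of the 12 core subunits passed the test, and their median was -0.06. The difference from the change without psqRNAi was tested on its own, with the result given further on.

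Rpn2 was at 11.11, 10.97, 10.92 and 10.99 in EP_Ctrl and at 10.76, 10.60, 10.67 and 10.79 in EP_EHT. The groups did not overlap, and Rpn2 fell by 0.29 ± 0.052 (1.22-fold, adjusted p = 0.00371). Rpn5, a lid subunit, was at 12.47, 12.50, 12.47 and 12.46 and then at 12.28, 12.23, 12.26 and 12.29. Arrays of a group lay close together and the groups apart, and Rpn5 fell by 0.21 ± 0.048 (adjusted p = 0.0169). Rpt5 fell by 0.22 ± 0.05 (adjusted p = 0.0168) and Rpn1 by 0.20 ± 0.053 (adjusted p = 0.0364). Among core subunits, Prosalpha5 was at 9.12, 9.15, 9.02 and 9.01 in EP_Ctrl and at 9.0, 9.21, 8.78 and 8.70 in EP_EHT, where replicates 1 and 2 overlapped with EP_Ctrl and replicates 3 and 4 were below it. Among all 40 genes the count called was 3 without EP_Ctrl replicate 1, without EP_Ctrl replicate 2 or without EP_EHT replicate 3, against 5. Over all genes 2.9%, 3.15% and 3.75% were called in these settings, against 4.72%. With only EP_Ctrl and EP_EHT in the model, none of the 4 subunits was called, where 1.99% of all genes were. Salivary gland markers were at 7.51 on EP_EHT replicate 4 and between 10.31 and 11.36 on replicates 1 to 3. Fat body markers were at 11.69 to 12.26 in EP_EHT against 12.25 to 13.13 in EP_Ctrl, and wing disc markers at 9.14 to 10.002 against 9.86 to 10.17. Of the fat body markers, Fbp1 was at 10.12 against 11.53, Fbp2 at 12.48 against 12.64 and Lsp2 at 13.40 against 13.58. The part of these markers in the results was not tested.

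**Figure D3:**
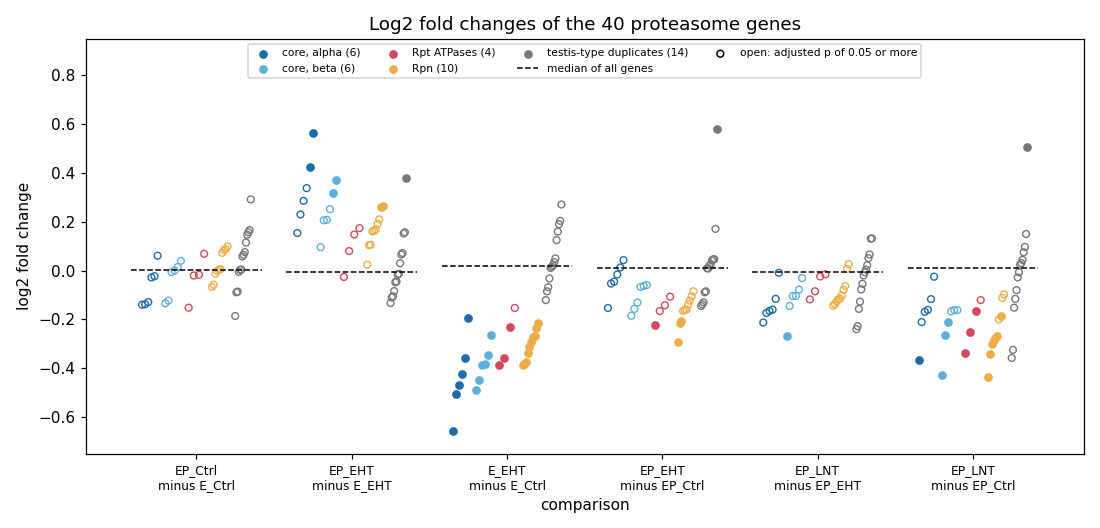
Log2 fold change of each of the 40 genes in 6 comparisons, in columns by class, with filled points for an adjusted p below 0.05, open points for others and a dashed line at the median of all genes. From E_Ctrl to E_EHT 25 standard subunits are filled and below 0, from EP_Ctrl to EP_LNT 14 are, and Rpt3R stands above 0 as a filled point from EP_Ctrl to EP_EHT and to EP_LNT.

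Several subunits, most of them of the core, were higher at day 4 with psqRNAi than with EGFR alone. This comparison shares arrays with both growth comparisons. Of the 26 standard subunits, 6 were higher in EP_EHT than in E_EHT and none was lower, where 2.39% of all genes were higher and 0.783% lower. The median log2 fold change was 0.20, with 25 of 26 values above 0, against -0.01 over all genes. The core particle had 4 of the 6, Prosalpha5, Prosalpha4, Prosbeta3 and Prosbeta6, and a median of 0.27. The regulatory particle had Rpn1 and Rpn11 and a median of 0.16. The arrays did not overlap in 13 of 26 subunits, all higher in EP_EHT, where 8.32% of all genes were so.

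Prosalpha5, at the values per array given above, was 0.56 ± 0.102 higher in EP_EHT (1.48-fold, adjusted p = 0.00551). Prosalpha4 was at 10.34, 10.49, 10.21 and 10.09 in EP_EHT, all above the E_EHT arrays, and was 0.42 ± 0.09 higher (1.34-fold, adjusted p = 0.0152). Prosbeta3 was at 10.87, 10.89, 10.67 and 10.64 in EP_EHT, also all above E_EHT, and was 0.37 ± 0.071 higher (1.29-fold, adjusted p = 0.00819). In each of these 3 genes EP_EHT replicates 1 and 2 were above replicates 3 and 4. Prosbeta6, a structural beta subunit, was 0.32 ± 0.069 higher (adjusted p = 0.0193), Rpn1 0.26 ± 0.058 and Rpn11 0.27 ± 0.059 (adjusted p = 0.0203 for both). Rpt3, at 10.84, 10.84 and 10.87 in E_EHT and 10.81, 10.93, 10.79 and 10.76 in EP_EHT, was the only standard subunit with a value below 0, at -0.03.

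The count in this comparison rested on few arrays. Among the 40 genes, 7 were called with all arrays, 15 without EP_EHT replicate 4, 3 without EP_EHT replicate 1, 4 without EP_EHT replicate 2, 4 without E_EHT replicate 4 and 1 without E_EHT replicate 3. Over all genes 3.17%, 8.46%, 1.43%, 1.91%, 1.34% and 1.37% were called, in the same order. With E_EHT replicate 1 kept, 6 were called, where 3.5% of all genes were. With only E_EHT and EP_EHT in the model, none was called, where 0.478% of all genes were, and Prosalpha5 had an adjusted p of 0.169. The median of the 26 subunits lay between 0.16 and 0.24 when any array was left out.

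Whether the change from 12 hr to day 4 differed between the genotypes was tested directly, as the change with psqRNAi minus the change without it. No proteasome gene passed the test by limma, and neither did any of the 13402 genes, so 0% were called. Of the 26 standard subunits, 18 had an unadjusted p below 0.05 with a positive difference, where 11.8% of all genes had one. The median difference was 0.20, with 25 of 26 above 0, against -0.01 over all genes. It was 0.35 for the core particle and 0.17 for the regulatory particle. For Prosalpha5 the difference was 0.50 (95% interval 0.21 to 0.80, adjusted p = 0.141), for Prosalpha4 0.45 (0.19 to 0.71, adjusted p = 0.138), and for Rpn2 it was -0.08 (adjusted p = 0.631). Without EP_EHT replicate 4, 10 of the 40 genes were called, where 2.57% of all genes were. The 10 were Prosalpha3, Prosalpha4, Prosalpha5, Prosalpha6, Prosalpha7, Prosbeta3, Prosbeta6, Prosbeta7, Rpn11 and Rpt3R. With array weights, 2 were called, where 1.04% of all genes were.

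From day 4 to day 11 with psqRNAi, 1 of the 26 standard subunits fell and none rose, where 2.5% of all genes fell and 4.49% rose. The gene was Prosbeta3, at 10.58, 10.42, 10.47 and 10.53 in EP_LNT, below all 4 arrays of EP_EHT. It fell by 0.27 ± 0.066 (1.21-fold, adjusted p = 0.0192). The median over the 26 was -0.11, with 24 of 26 below 0, against 0.00 over all genes. The call of Prosbeta3 was lost without EP_EHT replicate 1, EP_LNT replicate 2 or EP_LNT replicate 3. It was also lost with E_EHT replicate 1 kept and with only the groups compared. Without EP_EHT replicate 2, EP_EHT replicate 4 or EP_LNT replicate 4, 2 or 3 genes were called. Over all genes 7.77%, 7.36% and 11.3% were called in these 3 settings, against 6.99%. Fat body markers were lower in EP_LNT, at 10.13 to 10.61 against 11.69 to 12.26 in EP_EHT with no overlap, salivary gland markers were at 5.76 to 8.40 against 7.51 to 11.36, and haemocyte markers at 8.43 to 9.40 against 8.12 to 8.79. Their part in the result was not tested.

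Against the 12 hr discs, the neoplastic tumors of day 11 had lower levels of 14 standard subunits, and none was higher. Of all genes, 10% fell and 12.1% rose in this comparison, so that 22.1% were called, and 18.3% of other genes in the same level range fell. The median of the 26 was -0.21, with all 26 below 0, against 0.01 over all genes. Here the regulatory particle had 10 of 14 subunits called and a median of -0.26, and the core particle 4 of 12 and a median of -0.17. The arrays did not overlap in 19 subunits, all lower in EP_LNT, where 11% of all genes were so.

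Rpn2 was at 10.52, 10.55, 10.58 and 10.60 in EP_LNT, below all EP_Ctrl arrays, and fell by 0.44 ± 0.052 (1.35-fold, adjusted p = 1.32e-05). Rpn5 was at 12.07, 12.07, 12.11 and 12.29 in EP_LNT and fell by 0.34 ± 0.048 (1.27-fold, adjusted p = 7.82e-05). Replicate 4 of EP_LNT was the highest for both genes, and for Rpn5 it stood apart from the other 3. Rpt5 was at 11.48, 11.43, 11.43 and 11.57 and fell by 0.34 ± 0.05 (1.26-fold, adjusted p = 0.000107). Prosbeta3 fell by 0.43 ± 0.066 (1.34-fold, adjusted p = 0.000169) and Prosalpha5 by 0.37 ± 0.094 (1.29-fold, adjusted p = 0.00919).

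The trypsin-like subunit Prosbeta2 fell as well, by 0.26 ± 0.064 (adjusted p = 0.0063), at 11.64, 11.67, 11.57 and 11.63 in EP_LNT against 11.82, 11.99, 11.90 and 11.84 in EP_Ctrl, with no overlap. The chymotrypsin-like Prosbeta5 did not pass the test, at 0.17 ± 0.09 lower (adjusted p = 0.213). Its levels were 11.35, 11.28, 11.36 and 11.28 in EP_LNT and 11.42, 11.66, 11.53 and 11.33 in EP_Ctrl, which overlapped. Prosalpha2 was at 12.48, 12.55, 12.51 and 12.52 against 12.55, 12.58, 12.52 and 12.51, and its difference of -0.03 was within the spread (adjusted p = 0.802).

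Markers of other cell types differed between EP_LNT and EP_Ctrl. Fat body markers were at 10.13 to 10.61 against 12.25 to 13.13, salivary gland markers at 5.76 to 8.40 against 8.34 to 11.56, and haemocyte markers, 9 of 10 measured, at 8.43 to 9.40 against 8.01 to 8.45. In EP_LNT the haemocyte mean was lowest on replicate 4, the array with the highest levels of Rpn2 and Rpn5. Over the 14 regulatory subunits the mean was also highest on that array, at 10.88. Over the 12 core subunits it was lowest there, at 10.309 against 10.313 to 10.386 on the other arrays. Muscle markers, 3 of 6 measured, were at 8.62 to 8.97 against 9.19 to 12.18, though Mlc2 was at 11.78 against 11.57. Wing disc markers were at 8.91 to 9.75 against 9.86 to 10.17. Among them nub was at 9.04 against 10.62, while ap was at 10.12 against 10.22 and dpp at 8.92 against 8.82. The part of these markers in the lower RNA levels of proteasome genes was not tested.

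**Figure D4:**
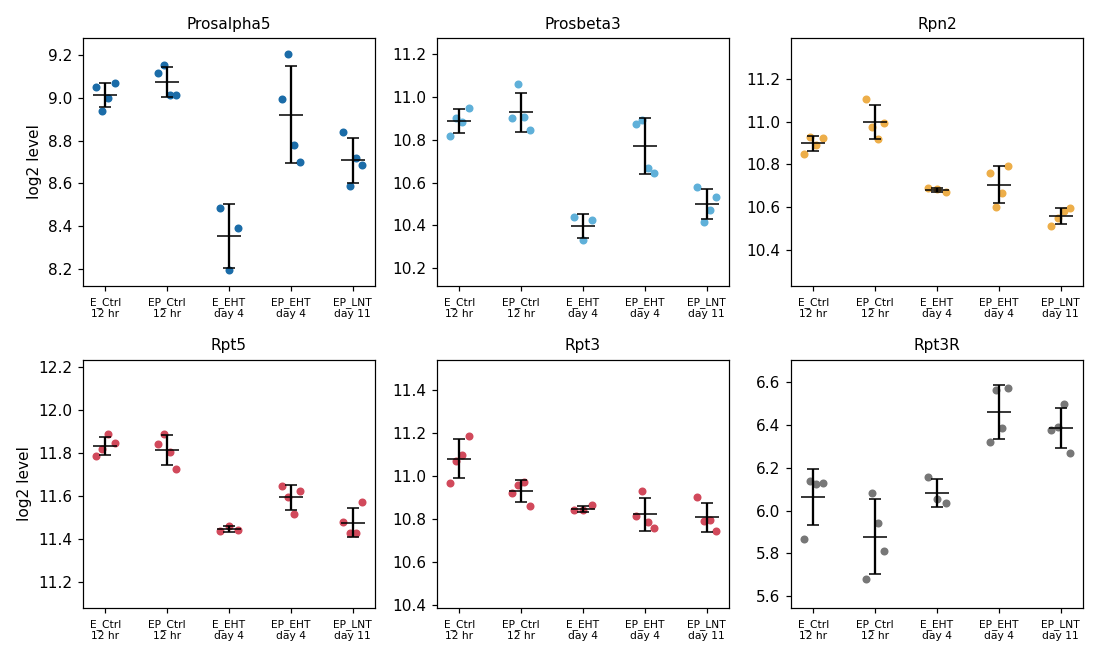
Log2 level of Prosalpha5, Prosbeta3, Rpn2, Rpt5, Rpt3 and Rpt3R on each array, by group, with bars for the group mean ± SD. Prosalpha5 has a mean of 8.36 ± 0.149 in E_EHT against 9.01 ± 0.058 in E_Ctrl, and Rpt3R is at 6.46 ± 0.126 in EP_EHT and 6.38 ± 0.093 in EP_LNT against 5.88 ± 0.174 in EP_Ctrl.

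Among the duplicates, Rpt3R, a duplicate of the base ATPase gene Rpt3, was the only gene that passed a test in the main fit. It rose where no standard subunit did. It was at 5.87, 6.14, 6.13 and 6.13 in E_Ctrl, at 5.68, 6.08, 5.94 and 5.81 in EP_Ctrl and at 6.16, 6.05 and 6.03 in E_EHT. It was at 6.32, 6.56, 6.38 and 6.57 in EP_EHT and at 6.38, 6.39, 6.50 and 6.27 in EP_LNT. Every array of EP_EHT and EP_LNT was above every array of the other 3 groups. The mean of EP_Ctrl, 5.88, lay below the dim level of 5.9, so the folds against it start from a dim signal. Rpt3R rose by 0.58 ± 0.089 from EP_Ctrl to EP_EHT (1.5-fold, adjusted p = 0.00128) and by 0.51 ± 0.089 to EP_LNT (1.42-fold, adjusted p = 0.000517). Both calls held in all 17 other settings.

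At day 4, Rpt3R was 0.38 ± 0.096 higher in EP_EHT than in E_EHT (1.3-fold, adjusted p = 0.0393), a call lost in 6 of 16 settings. From E_Ctrl to E_EHT it did not pass the test, at 0.02 ± 0.096 (adjusted p = 0.945), and the difference between the genotypes was 0.57 (95% interval 0.29 to 0.84, adjusted p = 0.138). On the same arrays Rpt3 was 0.11 ± 0.055 lower in EP_EHT than in EP_Ctrl (adjusted p = 0.345). Whether the Rpt3R probes also bind Rpt3 or other transcripts was not tested. The testis and male germline markers were at 5.75 to 5.86 in EP_EHT and 5.76 to 5.89 in EP_Ctrl, which overlapped.

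The other 13 duplicates had no call in the 7 comparisons of the main fit. From EP_Ctrl to EP_LNT, Rpt3R and 1 of them were called with quantile normalization, with dim genes removed and with array weights. The same count held without EP_LNT replicate 2 or 4. Over all genes 22.6%, 30.4%, 30.6%, 17.8% and 25.1% were then called, against 22.1%. From E_Ctrl to E_EHT, 2 of them were called with array weights and 1 without E_Ctrl replicate 3, where 16.7% and 7.2% of all genes were. In the main fit Rpn13R came nearest to a call. It was at 5.93, 6.27, 5.77 and 6.24 in EP_LNT and 6.30, 6.46, 6.39 and 6.49 in EP_Ctrl, with no overlap and a difference of -0.36 ± 0.127 (adjusted p = 0.0524). Prosbeta2R2 was at 6.47, 6.09, 6.31 and 6.45 in EP_LNT and at 6.54, 6.46, 6.76 and 6.86 in EP_Ctrl, which overlapped, with a difference of -0.33 ± 0.157 (adjusted p = 0.162). The median over the 14 duplicates lay between -0.05 and 0.06 in the 7 comparisons. Most of them were dim, and RMA compresses differences between dim probe sets.

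Genes that assemble, activate or serve the complex were described from lists, with 8 of 11 measured in the first. In E_EHT, 4 of these 8 fell against E_Ctrl, where 4.61% of all genes and 9.99% of those in the level range of the standard subunits fell. Pomp, the chaperone that completes assembly of the core particle, was at 10.41, 10.44, 10.38 and 10.44 in E_Ctrl and at 10.05, 9.93 and 9.92 in E_EHT, with no overlap. It fell by 0.45 ± 0.078 (1.37-fold, adjusted p = 0.00375). Uch-L5, a deubiquitinase that binds the regulatory particle, fell by 0.46 ± 0.08 (1.38-fold, adjusted p = 0.00377), Usp14, another deubiquitinase of the particle, by 0.30 (adjusted p = 0.0117), and Sem1, a small lid subunit outside the symbol rule, by 0.43 (adjusted p = 0.0429).

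Pomp was higher with psqRNAi at both times. It was at 10.74, 10.87, 10.80 and 10.71 in EP_Ctrl, above all arrays of E_Ctrl, and was 0.36 ± 0.072 higher there (1.29-fold, adjusted p = 0.0108). It was at 10.83, 10.84, 10.61 and 10.48 in EP_EHT, above all arrays of E_EHT, and was 0.73 ± 0.078 higher there (1.65-fold, adjusted p = 3.3e-05). From EP_Ctrl to EP_LNT, 3 of the 8 genes fell and 1 rose, where 10% of all genes fell and 12.1% rose. Uch-L5 was at 9.96, 9.85, 9.82 and 10.08 in EP_LNT against 10.52, 10.60, 10.41 and 10.39 in EP_Ctrl, and it fell by 0.56 ± 0.074 (1.47-fold, adjusted p = 4.74e-05).

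Of 6 measured genes of the cap-n-collar branch that controls proteasome genes, 3 rose and 1 fell from EP_Ctrl to EP_LNT, with a median of 0.15, where 12.1% of all genes rose and 10% fell. The rises were those of cnc, which encodes the cap-n-collar factor, by 0.33 ± 0.097 (adjusted p = 0.0188), its partner maf-S by 0.36 ± 0.095 (adjusted p = 0.0116), and rngo, a ubiquitin-binding protease, by 0.25 ± 0.059 (adjusted p = 0.00496). In E_EHT 1 of the 6 fell against E_Ctrl, where 4.61% of all genes fell. It was the segregase ATPase TER94, by 0.18 ± 0.047 (adjusted p = 0.0312). Of 8 measured genes listed as cap-n-collar targets outside the complex, 1 was lower with psqRNAi at 12 hr, where 1.76% of all genes were. It was GstE1, a glutathione transferase, by 0.91 ± 0.106 (adjusted p = 0.000113). From EP_Ctrl to EP_LNT 2 of the 8 rose, where 12.1% of all genes did, and 4 of the 8 values were below 0. GstE1 rose by 1.0 ± 0.106 there (adjusted p = 4.79e-06), to a mean of 11.08, against 10.99 in E_Ctrl.

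Ubiquitin supply and shuttling genes were measured in 10 of 15 cases. Of these, 2 fell in E_EHT against E_Ctrl, Npl4 and p47, by 0.22 each, where 4.61% of all genes fell. From EP_Ctrl to EP_LNT, 2 of the 10 rose and 1 fell, near the 12.1% and 10% of all genes. There, ref(2)P, an autophagy receptor for ubiquitinated proteins, rose by 0.42 ± 0.075 against EP_Ctrl (adjusted p = 0.00063) and by 0.37 ± 0.075 against EP_EHT (adjusted p = 0.00608). Of the COP9 signalosome, a complex related to the lid, 8 of 9 genes were measured, and 4 fell in E_EHT, where 4.61% of all genes did, with a median of -0.26 over the 8. CSN5, its catalytic subunit and a relative of Rpn11, was at 10.13, 10.13, 10.03 and 10.22 in E_Ctrl and at 9.80, 9.87 and 9.80 in E_EHT. It fell by 0.31 ± 0.067 (1.24-fold, adjusted p = 0.014), and was 0.29 ± 0.067 higher in EP_EHT than in E_EHT (adjusted p = 0.0254).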

How the data were processed

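The deposited table holds log2 levels, which the authors obtained with RMA according to the submitters' processing notes, where RMA and limma stand with no version. RMA makes the arrays' distributions nearly equal, so a common shift of most genes would not be seen. Probe sets with 1 symbol (13441 of 16322; 555 had several and 2326 none) were named from the platform annotation, and for 37 genes with more than 1 probe set the one with the highest mean was used, leaving 13402 genes. All 40 member genes matched the RefSeq gene table by ID.

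Each group's mean was fitted over the 19 arrays (R 4.3.3, limma 3.58.1, eBayes with no trend, 14 residual and 2.63 prior degrees of freedom), and two-sided p-values were Benjamini-Hochberg adjusted over 13402 genes, threshold 0.05. Adjusted p-values are from limma, errors of differences are SE and of groups SD. The median SE over genes was 0.093 with 4 arrays in both groups and 0.1 with E_EHT. No arrays were copies: pairs of a group differed by an SD of 0.225 to 0.497. An array has no read depth, and the number of arrays limits the precision. The script was tested on simulated data with shifts larger than most of the changes described here, so that test does not cover changes of their size.

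The members, the lists and the rule for named genes (all members, and of each list up to 4 by size of change) were chosen with earlier results of these data known. The alternatives were other normalizations, a filter on dim genes, other variance models and sets of arrays, and the replicate number as a block. Same-numbered arrays of different groups did not deviate together in most pairs, and the main fit used no pairing. Such correlations cannot show that no samples were paired.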

Additional observations from a re-analysis of the deposited data

Results flagged for a closer look

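In 164 groups of 4 arrays over the 40 genes and the mean of the 26 standard subunits, 3 arrays stood apart from the other 3 by Dixon's 95% criterion, which is 1.83%, where chance gives about 1 in 20. In E_Ctrl, replicate 1 of Prosbeta4 was at 11.09, against 11.21 to 11.23 on the other 3 arrays. In E_Ctrl, Rpt3R was at 5.87 on replicate 1, against 6.13 to 6.14. In EP_LNT, Prosbeta4R1 was at 4.01 on replicate 2, against 4.28 to 4.32. E_EHT has 3 arrays and was not tested in this way.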

How the results depend on the processing

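No member changed direction with a call under any alternative. The counts of the 40 genes called, in the order psqRNAi at 12 hr, psqRNAi at day 4, EGFR growth, EGFR with psqRNAi growth, day 11 against day 4, day 11 against 12 hr and the genotype difference, were 0, 7, 25, 5, 1, 15 and 0. With the replicate block they were 0, 7, 20, 4, 1, 15 and 0. Over all genes 2.43%, 3.17%, 6.58%, 4.72%, 6.99%, 22.1% and 0% were called in the main fit. With the block, the shares over all genes were 2.41%, 2.66%, 4.63%, 4.81%, 7.3%, 22.8% and 0%. Same-numbered arrays of different groups had correlations of their deviations from -0.40 to 0.37 (median -0.01, 36 pairs, 9 over 0.1), and 5 of 19 arrays were closest to their own number. With E_EHT replicate 1 kept, the count for day 11 against day 4 was 0, where 4.51% of all genes were called. With only the groups compared it was 0 for psqRNAi at day 4, 1 for EGFR with psqRNAi growth and 0 for day 11 against day 4. Over all genes 0.478%, 1.99% and 1.88% were then called. With array weights it was 2 for day 11 against day 4 and 2 for the genotype difference, where 13.2% and 1.04% of all genes were called. The causes were not tested. Leaving out 1 array at a time gave 0 to 0, 1 to 15, 13 to 24, 3 to 6, 0 to 3, 12 to 17 and 0 to 10 in the same order. Shares over all genes moved as well, for EGFR growth from 6.58% to 2.04% without E_EHT replicate 3. For psqRNAi at day 4 they were 1.37% and 8.46% at the counts of 1 and 15. For day 11 against 12 hr they were 20.1% and 25.1% at the counts of 12 and 17. The share was 3.77% at the count of 6 for EGFR with psqRNAi growth. It was 7.36% at the count of 3 for day 11 against day 4. For the genotype difference they moved from 0% to 2.57% without EP_EHT replicate 4. The median of the 26 subunits then ranged from -0.03 to 0.00, 0.16 to 0.24, -0.37 to -0.33, -0.17 to -0.08, -0.14 to -0.08, -0.22 to -0.19 and 0.17 to 0.26. Over single genes with a left-out array, 2318 values kept their side of the threshold, 94 lost a call and 28 gained one. Arrays have no depth: 11 of 14 duplicates were dim, which limits what can be measured in them.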
